A study of Mus musculus with 22 samples.

Results

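The 8 genes described here encode microbicidal effectors of myeloid cells and were chosen by name: the phagocyte NADPH oxidase subunits and GTPase Cybb, Cyba, Ncf1, Ncf4 and Rac2, the inducible nitric oxide synthase Nos2, and the lysozymes Lyz2 and Lyz1. They were followed in 2 cell types sorted from collagenase digests of lavaged mouse lung, CD11b+Ly6Chi monocytes and SigF+CD11b- alveolar macrophages. All groups were C57BL/6 mice carrying the SP-CI73T mutation, a change in surfactant protein C that injures the alveolar epithelium, and the study's methods describe adult homozygous animals of both sexes with a Flp-O recombinase knocked into Rosa26. One gavage of tamoxifen removes a neomycin cassette and raises the mutant protein. Monocytes came from 4 control samples, 4 samples taken 3 d after tamoxifen and 4 taken at 14 d, and for macrophages these numbers were 4, 3 and 3. The monocyte libraries held 15451460 to 28789639 counts and the macrophage libraries 4610720 to 17074863. The labels call the controls untreated. The study gives the controls of its monocyte sequencing as mutant mice that received oil, and its general methods add tamoxifen treated mutant mice without Flp-O as a further kind of control. All 8 genes were among the 31116 listed for both cell types (55421 listed for monocytes and 31134 for macrophages), and all 8 passed the filter on low counts in each fit.

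The phagocyte oxidase moves electrons from NADPH across the membrane of the phagosome to make superoxide. Cybb (gp91phox, the catalytic chain) and Cyba (p22phox) form the membrane core, and on activation cytosolic proteins such as Ncf1 (p47phox) and Ncf4 (p40phox) join it together with a Rac GTPase such as Rac2. Nos2 makes nitric oxide from arginine, and lysozyme cleaves the peptidoglycan of bacterial walls. Mice carry a pair of neighbouring lysozyme genes, Lyz2, known from macrophages and granulocytes, and Lyz1, known best from Paneth cells of the gut.

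Lyz2 (ENSMUSG00000069516, chr10:117277331-117282321, minus strand, GRCm38) and Lyz1 (ENSMUSG00000069515, chr10:117287797-117292868, minus strand) lie next to each other and resemble each other closely, so their sequences bear on how far their reads can be told apart. In the GENCODE transcripts, 22 of 444 coding bases differed between them (95.0% identity), and the longest run common to both transcripts was 118 bases. The read length was 150 bases, longer than that run. None of the 1114 windows of that length in the Lyz1 transcript could therefore match the Lyz2 transcript (1167 windows) exactly. Matches with differing bases were not searched. How reads that fit both genes were counted is not given in the sources used here, so each value below holds only as far as that counting kept them apart. Bases 37 to 156 of the coding sequence hold 14 of the differences, shown in capitals.
Lyz2 coding: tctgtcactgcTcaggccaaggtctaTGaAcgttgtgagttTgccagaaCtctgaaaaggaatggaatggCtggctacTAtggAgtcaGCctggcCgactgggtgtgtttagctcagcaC
Lyz1 coding: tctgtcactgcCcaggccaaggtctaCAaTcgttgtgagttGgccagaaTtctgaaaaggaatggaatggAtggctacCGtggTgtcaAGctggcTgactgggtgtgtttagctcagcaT

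RefSeq promoter windows (250 bases before to 50 after the start, GRCm38.p6) were at hand for 5 of the 8 genes, Cybb, Cyba, Ncf1, Lyz2 and Lyz1, and not for Ncf4, Rac2 and Nos2. The Lyz2 and Lyz1 windows are printed because the transcripts of both genes moved together. From 130 to 51 bases before the start they differed at 10 of 80 positions (87.5% identity), shown in capitals, at chr10:117282323-117282402 for Lyz2 and chr10:117292919-117292998 for Lyz1, both on the minus strand and outside annotated exons.
Lyz2 promoter: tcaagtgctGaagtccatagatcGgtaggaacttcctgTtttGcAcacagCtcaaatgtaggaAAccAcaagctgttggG
Lyz1 promoter: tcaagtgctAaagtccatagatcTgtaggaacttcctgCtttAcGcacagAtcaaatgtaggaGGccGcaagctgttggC
Neither window held the core of a PU.1 site (GAGGAA), an NF-kB form (GGGA and CC with any 4 bases between), a GAS form (TTC and GAA with any 3 bases between) or an ISRE form (GAAA and GAAA with any 2 bases between) on either strand, which says only that these letters are not in it. The Cybb window held the ISRE form 3 times, at 29 bases before the start on the plus strand of the gene and at 124 and 168 bases before it on the other strand, against 3.44% of 32851 promoters with at least 1 match. The stretch from 130 to 20 bases before the Cybb start is printed with 2 of these matches in capitals (chrX:9469344-9469454, minus strand, between exons of the longer GENCODE gene at chrX:9435252-9487771).
Cybb promoter: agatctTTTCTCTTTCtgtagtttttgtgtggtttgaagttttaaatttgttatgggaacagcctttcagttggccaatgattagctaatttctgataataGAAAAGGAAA
Of the other forms, the PU.1 core matched in Cybb (28.3% of promoters hold it), the NF-kB form in Cybb, Cyba and Ncf1 (20.7%), and the GAS form in Ncf1 (8.30%), where the ISRE form matched too. These are matches of letters and not binding sites.

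The control cells fitted their labels at the level of marker lists, which include genes of the sorted antigens. In control samples all 8 alveolar macrophage markers were called higher in macrophages and all 7 Ly6Chi monocyte markers higher in monocytes. A call here and below means an adjusted p under 0.05 and a fold above 1.5 in edgeR. In macrophages at 14 d, 6 of the 8 alveolar macrophage markers were called lower than in control. Markers of other cells are given for each group further below. Ly6c2, a defining surface marker of these monocytes, lay between 2570 and 3281 CPM (counts scaled to a common library total with TMM factors) in control monocytes and between 1.51 and 3.34 CPM in control macrophages. Several libraries stood apart, and these facts touch the results below. The monocyte libraries at 3 d detected 40119 to 41134 genes against 24775 to 30865 in control, and the macrophage libraries at 14 d held 4610720 to 6838893 counts against 14437070 to 17074863 in control. In both cell types the 14 d samples carried counts of 4 Y chromosome genes, with monocyte Ddx3y at 36.7 to 43.9 CPM and macrophage Ddx3y at 37.7 to 56.1 CPM, and almost no Xist (at most 0.242 and 4.03 CPM). Control and 3 d samples were the reverse, with Xist at 26.0 to 304 CPM and at most 2 counts of any of those Y genes in a library. Sex and the 14 d time point therefore cannot be told apart, and Cybb is itself on the X chromosome.

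Scaling matters for these genes. Most low-count genes lay higher in monocytes at 3 d and in macrophages at 14 d, and under TMM over all genes tested the well expressed genes (mean log2 CPM above 5) then had a median log2 fold change of -0.55 and -0.56 against control, while the median of all genes tested was 0.22 and 0.18. Apart from Nos2, all the genes described here are well expressed, so each change is given under TMM over all genes, and the fits were repeated with TMM factors taken from the well expressed genes alone, called the well-expressed scaling below. In monocytes at 14 d and macrophages at 3 d the same median was -0.07 and -0.06, and the 2 scalings hardly differed.

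**Figure D1:**
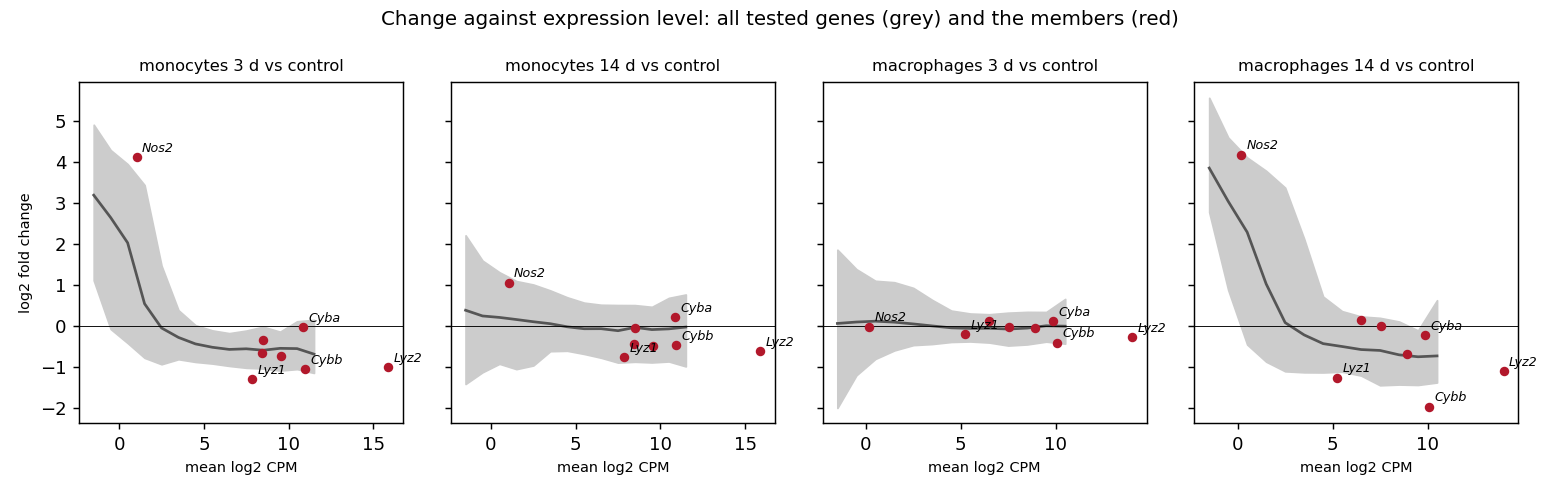
Log2 fold change against control (y axis, TMM over all genes tested) plotted against mean log2 CPM (x axis) for 4 comparisons. The grey band runs from the 10th to the 90th percentile of all genes tested in bins of 1 log2 unit with the median as a line, and red points are the 8 genes, of which Ncf1, Ncf4 and Rac2 carry no name. The median line falls from left to right in monocytes at 3 d and macrophages at 14 d, and Lyz2 lies to the right of the binned genes.

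In control animals the monocytes held more transcript of most of these effectors than the macrophages did. Lower in macrophages were 6 of the 8 genes, against 44.2% of 26692 genes called in either direction, 19.7% called lower and 39.9% of well expressed genes called lower. These 6 were Lyz1, Rac2, Ncf4, Lyz2, Cyba and Cybb, and they were called under the well-expressed scaling (background 43.4%) and library size scaling (44.3%) too. Ncf1 and Nos2 were not called. The median log2 difference of the 8 genes was -1.82, beside 0.05 over all genes tested and -0.31 over well expressed genes. Cell type, sort and library preparation cannot be told apart in this comparison.

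In monocytes at 3 d, Nos2 was called higher and Lyz1, Cybb, Lyz2, Rac2 and Ncf1 lower, 6 of 8 genes where 51.2% of 22353 genes were called. Called higher were 36.8% of all genes tested, and called lower 14.4% of all and 42% of the well expressed ones. The median log2 fold change of the 8 was -0.69. Separate groups were common here: for 51.2% of all genes tested the 3 d and control samples did not overlap (36.6% higher, 14.5% lower). Under the well-expressed scaling 2 of 8 kept their call, Nos2 and Lyz1, with a background of 46.1% called and 1.96% called lower, and the directions of Cyba and Ncf4 turned upward without a call. Library size scaling, with 45.8% of genes called, also left these 2. At 14 d the monocytes had 2 of 8 genes called, Lyz2 and Lyz1, both lower, against 8.56% of all genes called, 5.34% called lower and 12.5% of well expressed genes called lower. Under the well-expressed scaling Lyz1 kept its call (background 8.11%), and under library size scaling neither did (8.03%). With a sample left out, 1158 to 1904 genes were called at 14 d, where all samples gave 1914. The 14 d and control samples did not overlap for 13.7% of all genes tested (7.97% lower). Between 3 d and 14 d 1 gene was called, Nos2, lower at 14 d (background 46.5%, 34.5% called lower). It was called under the well-expressed scaling (background 44.8%) and library size scaling (43.4%) too. Samples of 3 d and 14 d did not overlap for 51.4% of all genes tested (15.5% higher, 35.9% lower). Cybb lay just short of the fold threshold, as described below.

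In macrophages at 3 d none of the 8 genes was called in edgeR, with 1.27% of 20944 genes called, and DESeq2, which called 763 genes, called none of them either. The edgeR background of 267 genes ran from 77 to 1476 with a sample left out, and Cybb was called without 3 d replicate 2. At 14 d, 5 of 8 were called (background 62.3%). Cybb, Lyz1, Lyz2 and Ncf1 were lower, where 22.9% of all and 47.8% of well expressed genes were called lower, and Nos2 was higher, where 39.4% of all genes were. The same 5 genes were called in the same directions between 3 d and 14 d (background 56.4%, 36.3% higher and 20% lower), of which Cybb, Lyz1 and Nos2 kept their call under the well-expressed scaling. Under the well-expressed scaling the calls at 14 d against control were Cybb and Lyz1 lower and Nos2 and Ncf4 higher, with 55.7% of genes called and 5.9% called lower. Library size scaling called 4 of 8 (background 55.3%). Samples did not overlap control for 14% of all genes tested at 3 d (7.16% lower) and 70.8% at 14 d (40.2% higher, 30.6% lower). Between 3 d and 14 d this share was 65.5% (39% higher, 26.5% lower). The 14 d groups of both comparisons are the same samples, so they are not separate evidence. In bulk samples such as these, fewer cells of a type and less RNA per cell cannot be told apart.

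**Figure D2:**
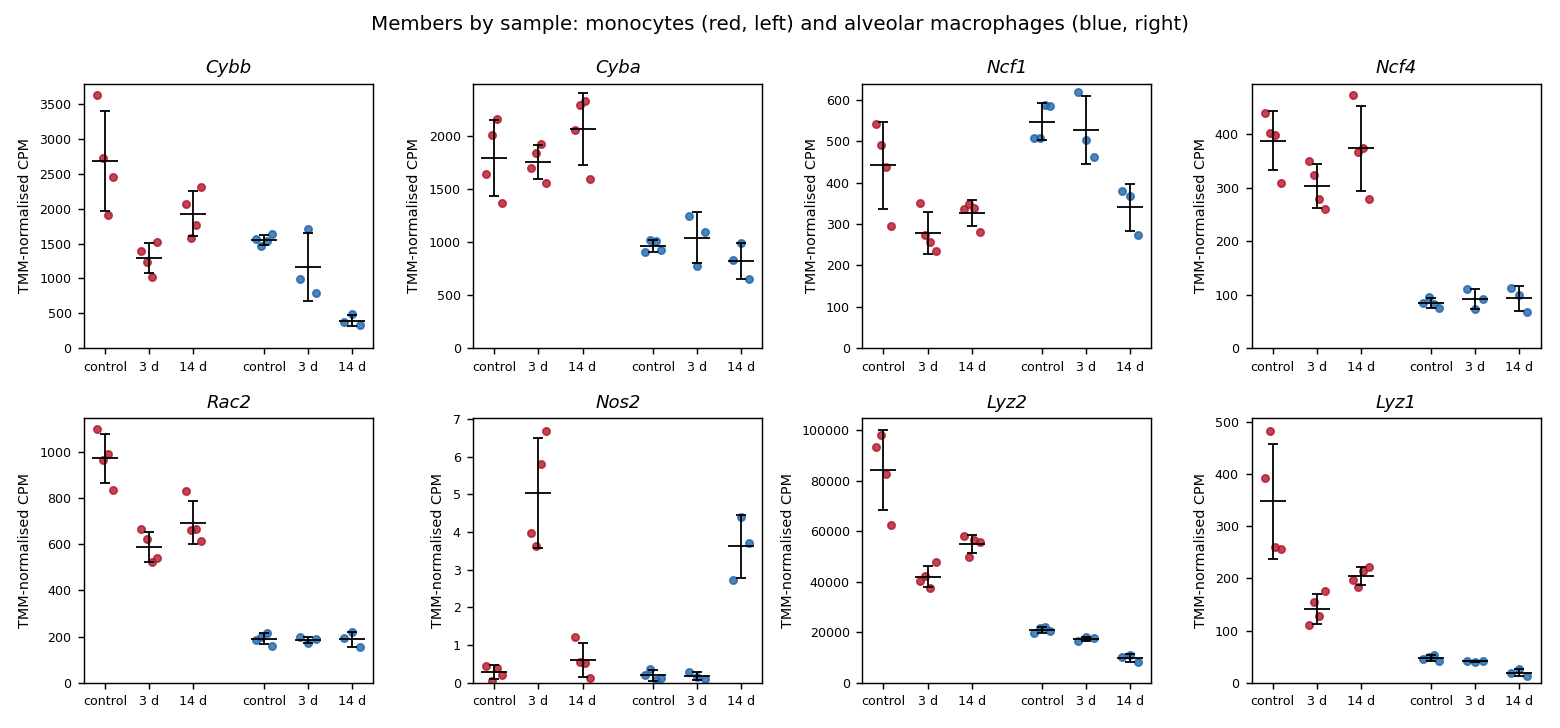
TMM-normalised CPM (y axis, its own range for each gene) of the 8 genes in each sample by group (x axis), monocytes in red and macrophages in blue. Points are samples and bars are the mean and SD. Cybb lies at 331 to 486 CPM in macrophages at 14 d, below all other samples, and Nos2 stands above the other groups in monocytes at 3 d and macrophages at 14 d.

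Cybb (ENSMUSG00000015340) encodes the chain that carries the electrons. In control monocytes it lay at 3631, 2735, 1918 and 2454 CPM in replicates 1 to 4, at 3 d at 1392, 1233, 1021 and 1519 CPM, and at 14 d at 2067, 1577, 1774 and 2309 CPM. All 3 d samples were below all control samples, and the 14 d samples, all above the 3 d samples, overlapped the control range. The log2 fold change at 3 d was -1.06 ± 0.19 (SE, adjusted p = 0.00112), and under the well-expressed scaling it was -0.53 (adjusted p = 0.0249), short of the fold threshold. At 14 d it was -0.47 ± 0.19 (adjusted p = 0.152), and -0.42 under the well-expressed scaling. From 3 d to 14 d the change was 0.58 ± 0.19 (edgeR adjusted p = 0.0218), a fold of 1.496 and so just short of a call. It was called in 7 of 12 fits with a sample left out. The rise shrank to 0.11 (adjusted p = 0.652) under the well-expressed scaling and 0.20 (adjusted p = 0.431) under library size scaling.

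In macrophages Cybb held the largest fall of the 7 well expressed genes. Control samples gave 1569, 1464, 1533 and 1631 CPM and 14 d samples 371, 486 and 331 CPM, with a wide gap between the groups. Lower without overlap in this comparison were 30.6% of all genes tested. The 14 d level was 3.91-fold lower (log2 fold change -1.97 ± 0.23, adjusted p = 6.61e-06), and -1.41 (adjusted p = 4.57e-05) under the well-expressed scaling. The call held with each sample left out in turn, between -2.17 and -1.91. At 3 d the values were 994, 1709 and 789 CPM, with replicate 2 above the control range and the other samples below it. The log2 fold change at 3 d was -0.41 ± 0.22 (adjusted p = 0.413), and without replicate 2 it became -0.76 and was called.

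Cyba (ENSMUSG00000006519, chr8:122424776-122432930), the stabilising partner of Cybb in the membrane, was not called against control in either cell type. Monocytes held 1638, 2007, 2162 and 1372 CPM in control, 1694, 1841, 1926 and 1560 CPM at 3 d and 2059, 2292, 2327 and 1594 CPM at 14 d, with overlap of all 3 groups. The log2 fold changes were -0.03 ± 0.16 at 3 d and 0.20 ± 0.16 at 14 d (adjusted p = 0.878 and 0.498). The value at 3 d depended on the scaling, at 0.49 (adjusted p = 0.0256) under the well-expressed scaling and 0.46 (adjusted p = 0.0215) under library size scaling, both with a fold under 1.5. Macrophages held 905 to 1017 CPM in control, 778 to 1247 CPM at 3 d and 826, 991 and 649.9 CPM at 14 d (-0.23 ± 0.18 at 14 d, adjusted p = 0.255), and the sign of that value turned to 0.33 under the well-expressed scaling.

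The ratio of both membrane chains within a library does not depend on the scaling between libraries. Per kilobase of exon, macrophages had 0.258 to 0.317 Cybb counts for each Cyba count in control (mean 0.289 ± 0.0291, SD, n = 4) and 0.0804, 0.0876 and 0.0910 at 14 d (mean 0.0864 ± 0.00542, n = 3), without overlap. At 3 d the ratios were 0.143, 0.393 and 0.129, so replicate 2 stood above and the others below the control range. Monocytes gave 0.159 to 0.397 in control, 0.0948 to 0.174 at 3 d and 0.123 to 0.259 at 14 d, and these ranges overlapped. The ratios are given as descriptions without a test.

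**Figure D3:**
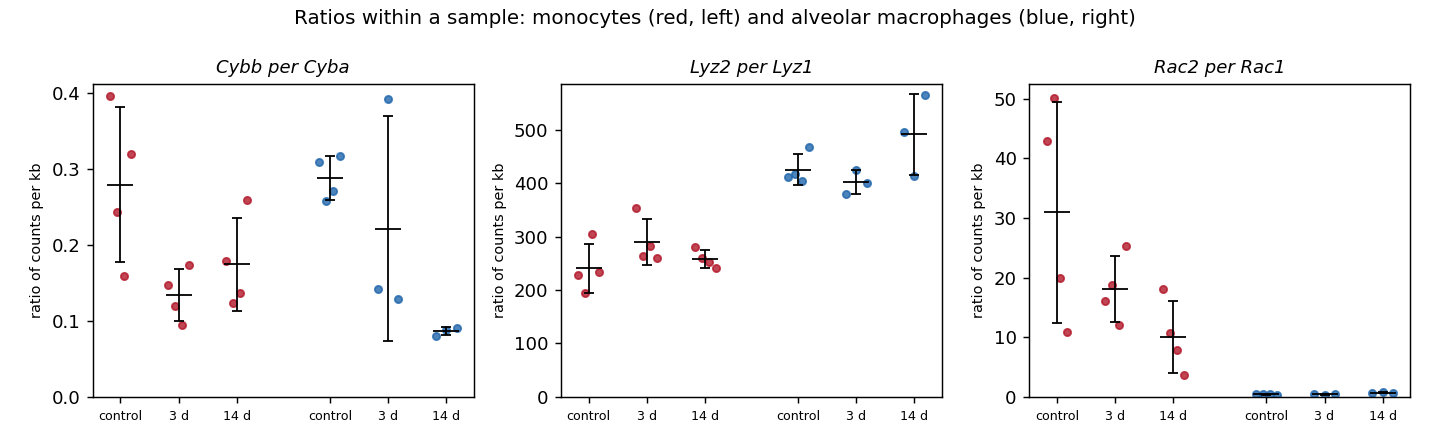
Ratios of counts per kilobase of exon within each sample (y axis, its own range for each ratio) by group (x axis), monocytes in red and macrophages in blue, with the mean and SD as bars. Cybb per Cyba is 0.0804 to 0.0910 in macrophages at 14 d against 0.258 to 0.317 in control, and Rac2 per Rac1 is at least 3.71 in all monocyte samples and at most 0.737 in all macrophage samples.

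Ncf1 (ENSMUSG00000015950, chr5:134220053-134229625), the organiser that brings the cytosolic subunits to the membrane, shares 408 exonic bases with Gtf2ird2 on the other strand, and whether counting used strand is not given in the sources used here, so reads there cannot be told apart. It was the gene of the 8 whose level was closest in the control cells (log2 difference -0.05 ± 0.17, edgeR adjusted p = 0.832). In the fit over all 22 samples control monocytes held 343 to 600 CPM and control macrophages 426 to 534 CPM. The difference was 0.10 under the well-expressed scaling and 0.38 under library size scaling, neither called. In the fits of each cell type, used for the values below, Ncf1 held 296 to 542 CPM in control monocytes and 508 to 589 CPM in control macrophages. In monocytes it gave 352, 274, 256 and 235 CPM at 3 d, of which replicate 1 lay inside the control range, and 279.6 to 349 CPM at 14 d, where a change of -0.44 was called only without control replicate 4 (-0.60). The change at 3 d was -0.66 ± 0.18 (adjusted p = 0.00804) and lost its call without 3 d replicate 3 and under the well-expressed scaling (-0.14). In macrophages it gave 619.8, 502 and 462 CPM at 3 d, overlapping control, and 379, 367 and 274 CPM at 14 d, below all control samples, a change of -0.69 ± 0.16 (adjusted p = 0.00118) that was -0.12 and not called under the well-expressed scaling.

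Ncf4 (ENSMUSG00000071715, chr15:78244801-78262580), which binds phosphoinositides of the phagosome, set the cell types apart more than time did. In the fits of each cell type, control monocytes held 309.9 to 439.6 CPM and control macrophages 74.4 to 96.4 CPM. The log2 difference in the fit over all 22 samples was -2.57 ± 0.19 (edgeR adjusted p = 1.51e-11). In monocytes it was 350.1, 325, 278 and 259.7 CPM at 3 d and 475, 368, 374 and 279.9 CPM at 14 d, and both groups overlapped control. The change at 3 d was -0.36 ± 0.17 (adjusted p = 0.0851), and 0.17 under the well-expressed scaling. In macrophages it was 111, 72.7 and 92.1 CPM at 3 d and 112.5, 100.3 and 66.8 CPM at 14 d, again overlapping control (0.14 ± 0.18, adjusted p = 0.50 at 14 d). Under the well-expressed scaling the 14 d value was 0.70 and was called (adjusted p = 0.00244).

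Rac2 (ENSMUSG00000033220, chr15:78559167-78572783), the GTPase of haematopoietic cells, had control values of 1098, 965, 989.5 and 837 CPM in monocytes. The 3 d samples, at 666, 621, 525 and 542 CPM, and the 14 d samples, at 829, 662, 667 and 615 CPM, all lay below them. The change was -0.72 ± 0.13 at 3 d (adjusted p = 0.00122) and -0.49 ± 0.13 at 14 d (adjusted p = 0.0348), the latter short of the fold threshold. Under the well-expressed scaling it was -0.20 at 3 d and -0.43 at 14 d (adjusted p = 0.0718), neither called. Macrophages held 161 to 217 CPM in control, 171 to 199 CPM at 3 d and 154.5 to 218 CPM at 14 d, overlapping throughout (-0.01 ± 0.15 at 14 d), and the well-expressed scaling put the 14 d value at 0.55, with a fold under 1.5.

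Rac1, the form found in most tissues, showed the opposite pattern between the cells. In control cells Rac2 was 6.58-fold lower in macrophages than in monocytes (log2 difference -2.72 ± 0.15, adjusted p = 6.98e-14), whereas Rac1 was higher by 3.00 ± 0.41 on the log2 scale (adjusted p = 3.61e-06). Within libraries and per kilobase, monocytes had 10.9 to 50.01 Rac2 counts for each Rac1 count in control, 12.1 to 25.3 at 3 d and 3.71 to 18.01 at 14 d. Macrophages had 0.331 to 0.478 in control, 0.355 to 0.487 at 3 d and 0.674, 0.737 and 0.667 at 14 d, all below every monocyte sample. Rac1 fell in macrophages at 14 d (-0.70 ± 0.14, adjusted p = 0.000546), but was -0.13 without a call under the well-expressed scaling. It was not called in macrophages at 3 d (-0.04 ± 0.14) or in monocytes at 3 d (-0.30 ± 0.46) and 14 d (1.07 ± 0.46, adjusted p = 0.190) against control.

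Other oxidase partners and regulators were counted as a list of 10 genes that includes Rac1. In monocytes at 3 d, 6 were lower, among them Hvcn1 (the voltage gated proton channel that balances charge, -1.36), Dock2 (an exchange factor for Rac, -1.28) and Prkcd (a kinase that phosphorylates Ncf1, -0.73), of which Dock2 alone was called under the well-expressed scaling. In monocytes at 14 d, 4 were lower, with Dock2 at -0.87, Cybc1, a chaperone of the membrane core, at -0.77 and Nrros, which controls the stability of Cybb protein, at -0.74, and these 3 kept their call under the well-expressed scaling, though with a sample left out Dock2 was called in 3 of 12 fits, Cybc1 in 7 and Nrros in 11. In macrophages at 14 d, 7 of 10 were lower and none higher, led by Prex1 (a Rac exchange factor, -1.56), Nrros (-1.09) and Hvcn1 (-1.08), but under the well-expressed scaling 1 was lower, Prex1 (-0.999), and 1 was higher. None of the 10 was called in macrophages at 3 d. Of all well expressed genes, 42% were lower in monocytes at 3 d, 12.5% in monocytes at 14 d and 47.8% in macrophages at 14 d. The list medians were -0.61 in monocytes at 3 d, -0.48 in monocytes at 14 d and -0.82 in macrophages at 14 d, beside -0.55, -0.07 and -0.56 for well expressed genes.

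Nos2 (ENSMUSG00000020826, chr11:78920787-78960254) was the only one of the 8 near the detection limit, where 3 counts correspond to 0.121 to 0.161 CPM in a monocyte library and to 0.197 to 0.507 CPM in a macrophage library. Its raw counts in control monocytes were 11, 1, 10 and 5, at 3 d 98, 81, 108 and 142, and at 14 d 26, 11, 10 and 3. In CPM these were 0.0538 to 0.456, then 3.98, 3.64, 5.81 and 6.68, then 0.121 to 1.21. Every 3 d sample was above every other monocyte sample, and the 14 d samples overlapped control. The mean was 0.279 CPM in control and 5.03 CPM at 3 d. As summed counts over summed library totals, without TMM factors, Nos2 was 23.5 times as frequent at 3 d as in control (27 and 429 counts, exact 95% interval 15.9 to 36.1) and 2.14 times at 14 d (50 counts, 1.32 to 3.56), intervals that cover counting error only.

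The log2 fold change of Nos2 fitted in monocytes was 4.11 ± 0.64 at 3 d (adjusted p = 0.000601) and 1.05 ± 0.63 at 14 d (adjusted p = 0.358). Among genes with a mean log2 CPM below 2, 62.4% were called higher at 3 d, and in the bin of mean log2 CPM from 1 to 2 the median log2 fold change was 0.54 and the 90th percentile 3.43. Nos2 lay above the 90th percentile of its bin. Its mean log2 CPM of 1.04 was near the lower edge of that bin. In the bin from 0 to 1 the median was 2.02 and the 90th percentile 3.94. Nos2 was also called under the well-expressed scaling (4.64).

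Macrophages had almost no Nos2 until 14 d. Raw counts were 3, 5, 1 and 2 in control and 4, 2 and 1 at 3 d, most of them at or under the limit of 3 counts, and 19, 35 and 22 at 14 d, or 2.74, 4.41 and 3.72 CPM. The 14 d samples stood above all others, at 25.9 times the control rate in summed counts over library totals without TMM factors (11 and 76 counts, exact 95% interval 13.7 to 54.0), in the libraries with the smallest totals. The fitted log2 fold change was 4.17 ± 0.59 (adjusted p = 3.19e-05) and 4.72 under the well-expressed scaling. Here too the low genes moved as a body, and 72.1% of genes with a mean log2 CPM below 2 were called higher. The bin from 0 to 1 that holds Nos2 had a median of 2.28 and a 90th percentile of 4.10. The mean log2 CPM of Nos2 was 0.17, and in the bin from -1 to 0 these values were 3.03 and 4.59.

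The Nos2 signal was highest at 3 d in monocytes and at 14 d in macrophages, and the fitted differences between cell types are given as descriptions. The change in macrophages minus that in monocytes was -4.31 ± 1.01 at 3 d (adjusted p = 0.0070, background 18.7% of 26692 genes called and 15.2% called lower, 22.1% of low genes called in this direction) and 2.78 ± 0.88 at 14 d (adjusted p = 0.0162, background 36.8% called and 16.9% called higher, 23.2% of low genes called in this direction). Both were called with each of the 22 samples left out in turn and under the well-expressed scaling (background 21% and 33.8%) and library size scaling (21.5% and 31.6%). The value at 3 d rests on macrophage groups at the limit of 3 counts. Nos2 passed the filter on low counts through monocytes at 3 d and macrophages at 14 d, the groups where it is high. Fits of only the lower groups left it out. The calls for Nos2 here and above therefore add no evidence beyond its raw counts.

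Genes of arginine and nitric oxide metabolism were counted as a list of 14. In monocytes at 14 d 3 were higher, among them Slc7a2, a cationic amino acid carrier (3.26), and none was lower, with and without the well-expressed scaling. At 3 d 5 of 14 were higher, among them Ass1, which remakes arginine from citrulline, at 0.64, a call that 6 of 12 fits with a sample left out lost. Ass1 was not called in monocytes at 14 d (0.70 ± 0.25, adjusted p = 0.102) or in macrophages at 3 d (0.22 ± 0.37). In macrophages at 14 d 6 of the 13 tested were higher and 3 lower, where 39.4% of all genes tested were higher and 22.9% lower. For the monocyte counts these shares of higher genes were 36.8% at 3 d and 3.22% at 14 d. Ass1 rose by 1.15 ± 0.36 (adjusted p = 0.013), losing its call without 14 d replicate 3 or 3 d replicate 2, while Pts (-1.21) and Spr (-0.997), enzymes of tetrahydrobiopterin, the cofactor of Nos2, and Slc7a2 (-0.96) fell, of which Pts kept its call under the well-expressed scaling. Gch1, the first enzyme of that cofactor's synthesis, was not called against control in either cell type at either time, with log2 values from -0.38 to 0.59.

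Lyz2 supplied a large part of each library. It took 5.74% to 8.24% of all counts in control monocytes, 4.53% to 5.87% at 3 d and 4.79% to 5.75% at 14 d, and 1.82% to 1.99%, 1.48% to 1.71% and 1.04% to 1.29% in macrophages. Monocyte values were 93418, 98148, 82537 and 62452 CPM in control, 40453, 42319, 37630.4 and 47653 CPM at 3 d, and 57973, 49892, 56443 and 55695 CPM at 14 d. All 3 d and 14 d samples were below all control samples, of which replicate 4 was the lowest. The changes were -1.002 ± 0.14 at 3 d (adjusted p = 0.000354) and -0.61 ± 0.14 at 14 d (adjusted p = 0.00994), and -0.48 and -0.56 under the well-expressed scaling, where both were short of a call.

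In macrophages Lyz2 was at 19688, 21668, 22248 and 20353 CPM in control, 16394, 17987 and 17669 CPM at 3 d and 10192, 11088 and 8079.9 CPM at 14 d, so that the 3 groups did not overlap. The change was -0.27 ± 0.15 at 3 d (adjusted p = 0.428) and -1.10 ± 0.15 at 14 d (adjusted p = 2.60e-05). At 14 d it was -0.54 under the well-expressed scaling, with an adjusted p of 0.00113 and a fold under 1.5, and it was called under library size scaling.

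Lyz1, read with the limit given above, followed Lyz2 at a much lower level. In control monocytes it was 393, 483, 259.7 and 256 CPM, at 3 d 109.9, 154, 127 and 176 CPM and at 14 d 198, 184, 215 and 221 CPM, with every 3 d and 14 d sample below every control sample. The changes were -1.29 ± 0.21 (adjusted p = 0.000683) and -0.77 ± 0.21 (adjusted p = 0.0319), and -0.77 and -0.71 under the well-expressed scaling, both called. At 14 d neither lysozyme was called under library size scaling. The Lyz1 call was kept in 6 of 12 fits with a sample left out, and in 9 of 12 for Lyz2. Those that ended it for Lyz1 were control replicates 1 and 2, 3 d replicate 2 and 14 d replicates 1, 2 and 3, and for Lyz2 control replicates 1 and 2 and 14 d replicate 2. The 14 d values then lay between -0.89 and -0.56 for Lyz1 and between -0.74 and -0.53 for Lyz2.

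In macrophages Lyz1 was at 45.8, 49.9, 52.9 and 41.8 CPM in control, 41.4, 40.7 and 42.2 CPM at 3 d and 19.7, 25.7 and 13.7 CPM at 14 d. The 14 d samples were separate from the rest (-1.26 ± 0.18, adjusted p = 3.92e-05), and the call held under the well-expressed scaling (-0.71) and with each sample left out. Per kilobase of exon, Lyz2 had 195 to 305 counts for each Lyz1 count in control monocytes, 260.02 to 353 at 3 d and 242 to 281 at 14 d, and 404 to 468, 380 to 425 and 414 to 566 in macrophages. The monocyte and macrophage ranges did not overlap, whereas the groups of 1 cell type did. Between control cells the log2 difference, macrophages minus monocytes, was -3.24 ± 0.21 for Lyz1 and -2.37 ± 0.13 for Lyz2 (adjusted p = 1.48e-12 and 7.74e-14).

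**Figure D4:**
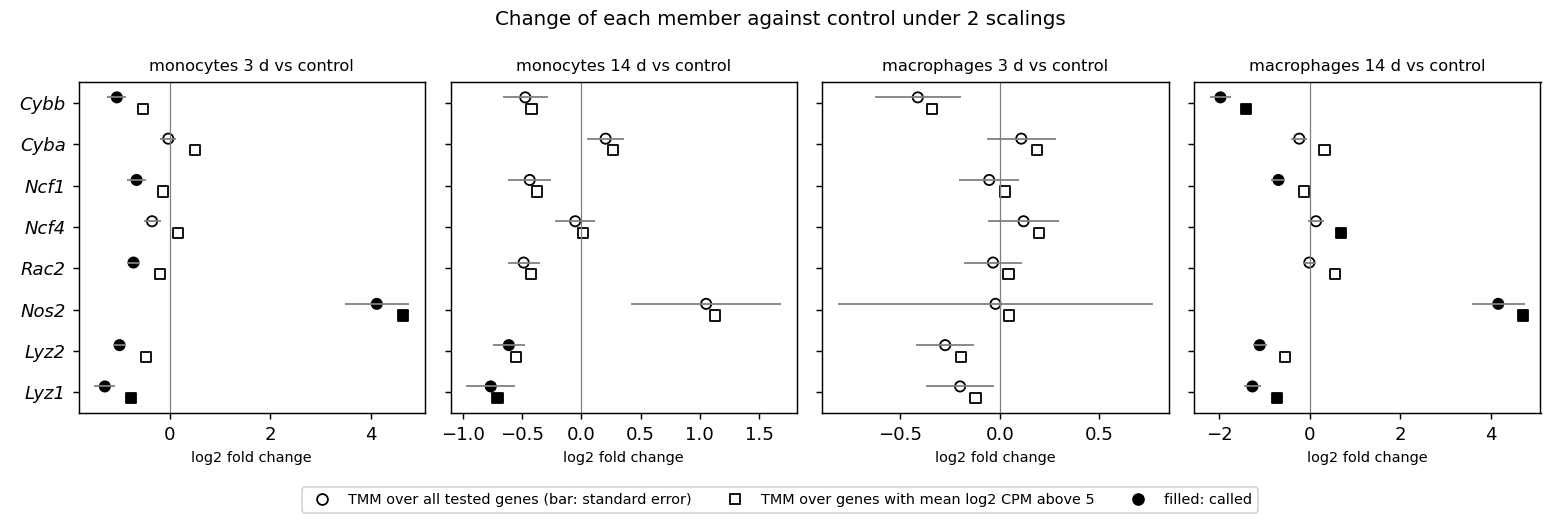
Log2 fold change against control (x axis, its own range in each panel) of the 8 genes in 4 comparisons. Circles are TMM over all genes tested with the standard error as a bar, squares the well-expressed scaling, and filled symbols are called. In monocytes at 3 d 6 circles and 2 squares are filled, and in macrophages at 14 d Cybb, Nos2 and Lyz1 are filled under both.

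Whether the cell types differed in their response was tested for each gene. At 3 d 2 of 8 genes were called, Nos2 as above and Lyz1, whose change was higher in macrophages by 0.91 ± 0.28 (adjusted p = 0.0276, 3.51% of all genes called higher). The background of 4995 genes called for the 3 d difference ran from 2272 to 5370 with a sample left out. The Lyz1 value was 0.63 and not called under the well-expressed scaling, and its call ended without control replicate 2, 3 d replicate 1 or 3 d replicate 3 of the monocytes, or control replicate 1 or 3 d replicate 1 of the macrophages (0.71 to 1.06 in these fits). At 14 d 5 of 8 were called. The change in macrophages was lower for Cybb (-1.85 ± 0.30, adjusted p = 6.83e-05), Lyz1 (-0.85 ± 0.29), Lyz2 (-0.84 ± 0.18) and Cyba (-0.78 ± 0.24), where well expressed genes had a median of -0.85 and 19.9% of all genes and 55.5% of the well expressed ones were called lower. With 1 of 22 samples left out, Cybb and Lyz2 kept their call in all fits, Cyba lost it without 3 d macrophage replicate 3 (-0.71), and Lyz1 lost it in 7 fits (-0.78 to -0.68). Those 7 left out control replicate 3 or 14 d replicate 4 of the monocytes, or control replicate 3, 3 d replicates 1, 2 or 3 or 14 d replicate 3 of the macrophages. Under the well-expressed scaling Cybb stayed lower at -0.98 (adjusted p = 0.014), Lyz1, Lyz2 and Cyba lay at 0.00149, 0.0221 and 0.0618, and Rac2 was called higher at 0.98 (adjusted p = 0.00124). Cybb and Nos2 were thus the genes of the 8 called for the 14 d difference between cell types under both scalings, Nos2 with the limit of the filter given above.

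Levels can be set side by side per kilobase of exon. In control monocytes the mean CPM per kilobase was 63935 ± 12057 for Lyz2, 1727 ± 344 for Cyba, 462 ± 123 for Cybb, 313 ± 34.6 for Rac2, 275 ± 87.2 for Lyz1, 192 ± 27.3 for Ncf4, 121 ± 28.9 for Ncf1 and 0.0632 ± 0.0420 for Nos2 (SD, n = 4). The sample ranges of Cybb and Rac2, of Rac2 and Lyz1 and of Lyz1 and Ncf4 overlapped, so these neighbours could not be set in order beyond their spread. In control macrophages the order was Lyz2 (15949 ± 893), Cyba (928 ± 57.0), Cybb (267 ± 12.01), Ncf1 (149 ± 12.4), Rac2 (61.4 ± 7.63), Ncf4 (41.9 ± 4.47), Lyz1 (37.7 ± 3.84) and Nos2 (0.0444 ± 0.0307), and Ncf4 and Lyz1 could not be set in order beyond their spread. At 14 d in macrophages Cybb was at 68.2 ± 13.8 and Ncf1 at 92.8 ± 15.7, while Cyba stood at 792 ± 164 (SD, n = 3). Cybb had 1.64 to 1.95 counts per kilobase for each Ncf1 count in the control macrophages and 0.618 to 0.835 at 14 d.

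Marker genes of other cells moved with these results. In macrophages the alveolar macrophage list (8 of 8 genes detected, Car4 the most abundant at 607 to 2016 CPM in control and 497 to 807 CPM at 14 d) summed to 3703, 5039, 4761 and 4517 CPM in control, 7016, 4603 and 6896 CPM at 3 d and 1843, 2556 and 1845 CPM at 14 d. The list of monocyte-derived or interstitial macrophage genes (6 of 6 detected) summed to 59.0 to 98.4 CPM in control and 1278, 699 and 1459 CPM at 14 d. Apoe, the most abundant, alone was at 46.9 to 79.6 CPM in control and 443 to 933 CPM at 14 d. The neutrophil list (12 of 12 detected at 14 d, S100a9 the most abundant at 104 to 706 CPM) summed to 115 to 233 CPM in control and 1415, 1692 and 436 CPM at 14 d, with its defining marker Ly6g at 0 to 9 counts a library. Ly6Chi monocyte markers, whose cells held the higher level of 6 of the 8 genes in control, summed to 33.7 to 57.1 CPM in control and 399, 302 and 183 CPM at 14 d, with Ly6c2 itself at 1.18 to 6.19 CPM. Eosinophil genes (4 of 4 detected at 14 d, Prg2 the most abundant at 18.5 to 82.8 CPM), from cells that carry SigF as the sorted cells do but also the CD11b that the sort gated out, summed to 0.664 to 1.90 CPM in control, 1.94 to 2.92 CPM at 3 d and 101, 28.4 and 107 CPM at 14 d, and all 4 were called higher at 14 d. Fibroblast genes (4 of 4 detected, Col3a1 the most abundant at 102 to 277 CPM at 14 d) summed to 15.9 to 20.6 CPM in control and 200.1, 144 and 325 CPM at 14 d, and all 4 were called higher. Airway epithelial genes (4 of 4 listed, Scgb1a1 the most abundant at 319.6 to 653 CPM at 3 d) summed to 17.2 to 87.5 CPM in control, 751, 342 and 406 CPM at 3 d and 34.0 to 117 CPM at 14 d, with 3 called lower from 3 d to 14 d. B cell genes (Cd79a the most abundant at 3 d) summed to 54.2 to 142 CPM, 166 to 529 CPM and 88.5 to 163 CPM in control, at 3 d and at 14 d, and 4 of 4 were called lower from 3 d to 14 d. Against control at 14 d, 2 of 3 endothelial genes (7.15 to 15.7 and 28.4 to 39.3 CPM) and 3 of 5 dendritic cell genes were called higher. Of 4 patrolling monocyte genes, 2 were lower at both times. Of 7 alveolar type 2 genes (202 to 286 and 172 to 189 CPM), 3 were lower and 1 higher at 14 d. The labels give the macrophage sort as SigF+CD11b-, and how far it left out fibroblasts, epithelium, lymphocytes and neutrophils was not tested. The methods describe a gate on viable CD45+ singlets with removal of Ly6G+ and CD3+ cells for the monocyte sort, and whether it was applied to the macrophages is not given in the sources used here. The part of these cells in the values at 14 d was not tested.

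In monocytes the patrolling monocyte list (4 of 4 detected) summed to 1980, 2282, 1935 and 2336 CPM in control. It summed to 341, 499.7, 341 and 589 CPM at 3 d, and 273 to 539 CPM at 14 d. Nr4a1, its most abundant gene, alone was at 1085 to 1782 CPM in control. The monocyte-derived or interstitial macrophage genes (6 of 6 detected) summed to 2441, 5476, 7406 and 3900 CPM in control and 586 to 1023 CPM at 3 d. At 14 d they summed to 3288, 5902, 11012 and 5141 CPM. Of these genes, 2 were called lower at 3 d and 5 called higher at 14 d against control. Apoe, the most abundant, alone was at 2360 to 7209 CPM in control. Dendritic cell genes (5 of 5 detected, Cd209a the most abundant in control) summed to 225 to 370.4 CPM in control, 24.7 to 182 CPM at 3 d and 113 to 184 CPM at 14 d. T and NK cell genes (7 of 7 detected, Gzma the most abundant at 182 to 755 CPM in control) summed to 346, 517, 1452 and 1236 CPM in control, 15.8 to 273 CPM at 3 d and 19.3 to 38.9 CPM at 14 d. The neutrophil list summed to 576 to 858 CPM in control, 1689, 943, 1086 and 493 CPM at 3 d and 1044 to 1962 CPM at 14 d. Csf3r, the most abundant of that list in control, alone was at 274 to 557 CPM there. Ly6g had 0 to 42 counts in any monocyte library. Control replicates 3 and 4, with the most T and NK cell transcript, had the lowest Cybb, Lyz1 and Lyz2 of the controls. The same replicates held the most alveolar macrophage transcript (8 genes, Car4 the most abundant), at 89.2, 155, 500.4 and 372 CPM in control replicates 1 to 4, and the most airway transcript, at 37.2, 44.9, 156 and 447 CPM. They held the least Ly6Chi monocyte transcript, at 12346, 10467, 7678 and 7241 CPM. Alveolar macrophage genes summed to 50.9 to 243 CPM at 3 d, with 5 of 8 called lower, and to 129 to 303 CPM at 14 d, with 1 called lower. Airway genes summed to 22.1 to 78.2 CPM at 3 d, with 2 of 3 tested called lower, and to 12.5 to 112 CPM at 14 d, with 1 called lower. B cell genes (4 of 4 detected, Cd79b the most abundant) summed to 73.6 to 106 CPM in control, 27.9 to 44.7 CPM at 3 d and 23.4 to 48.1 CPM at 14 d, and all 4 were called lower at both times. Napsa, the most abundant of the alveolar type 2 genes, alone was at 1182 to 1421 CPM in control. Alveolar type 2 genes summed to 1302 to 1623 CPM in control, 950 to 1023 CPM at 3 d and 901 to 1257 CPM at 14 d. Of the 6 tested, 3 were called lower and 1 higher at 3 d, and 2 lower at 14 d. By the methods the sort had removed CD3+ lymphocytes, Ly6G+ neutrophils, eosinophils, SigF+CD11b-CD11c+ alveolar macrophages and CD45- cells. The monocyte gate itself was CD11c-. The part of these cells in the values was not tested. Of 7 Ly6Chi monocyte genes, 1 was called higher and 1 lower at both times. Ly6c2 was at 2570 to 3281 CPM in control, 2668 to 3459 CPM at 3 d and 1314 to 1790 CPM at 14 d, and Vcan was at 50.3 to 112 CPM in control and 336 to 398 CPM at 14 d.

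Genes that remove superoxide and peroxide, as a list of 12, had 3 lower and 1 higher in monocytes at 3 d, led by Sod2 (mitochondrial superoxide dismutase, -0.78), Prdx3 (-0.73) and Cat (catalase, -0.67), and none of them lower under the well-expressed scaling. At 14 d 1 was higher, Prdx1 (0.71). In macrophages at 14 d 6 were lower, led by the peroxiredoxins Prdx1 (-1.10) and Prdx5 (-0.83) and by Cat (-0.77), and Prdx6 was higher (0.70), but under the well-expressed scaling 3 were higher and none lower, where that scaling called 49.8% of all genes tested higher and 5.9% lower. The counts of lower genes under TMM over all genes stand beside the 42% and 47.8% of well expressed genes given above for the same comparisons. Of all genes tested, 36.8% were higher and 14.4% lower in monocytes at 3 d, and 3.22% were higher at 14 d. In macrophages at 14 d 39.4% were higher and 22.9% lower. The 9 other oxidases of the NOX and DUOX family had 6 of 7 tested genes higher in monocytes at 3 d and 5 of 6 higher in macrophages at 14 d, at list medians of 3.13 and 3.28, none with a mean log2 CPM above 3. Of all genes with a mean log2 CPM below 2, 62.4% and 72.1% were higher in these comparisons. In the bin of mean log2 CPM from -2 to -1 the median was 3.18 and 3.85. Genes this low can pass the filter through the group where they are high, so no change of this family is read from these counts.

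Of the 13 other lysozyme family and phagosome effectors, 8 were tested in macrophages. At 14 d 6 of these 8 were higher and none lower, where 39.4% of all genes tested were higher. That share was 72.1% among genes with a mean log2 CPM below 2 and 5.17% among well expressed genes. Camp and Ltf of this list are also on the neutrophil list above, and the part of neutrophils in these counts was not tested. Of the 7 tested in monocytes, 2 were higher and 2 lower at 3 d, and 1 was higher and 2 lower at 14 d, where 36.8% of all genes tested were higher and 14.4% lower at 3 d and 3.22% and 5.34% at 14 d. In macrophages at 14 d Slc11a1, the metal carrier of the phagosome that withholds iron and manganese, went from 3.36 to 4.38 CPM in control to 40.5 to 54.8 CPM (3.68 ± 0.39, adjusted p = 1.04e-05), Pglyrp1, a peptidoglycan binding protein, rose by 4.99 and Lcn2, which binds bacterial siderophores, by 3.31. Pglyrp1 was already called in macrophages at 3 d (2.05 ± 0.34, adjusted p = 0.0110). In monocytes Slc11a1 fell at 3 d (-1.13) and 14 d (-0.74), and Pglyrp1 fell at 3 d (-0.89) and 14 d (-2.02), under the well-expressed scaling too except Pglyrp1 at 3 d. The change at 14 d in macrophages minus that in monocytes was 4.08 for Slc11a1 and 6.68 for Pglyrp1 (adjusted p = 5.10e-07 and 1.81e-09).

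Of 7 myeloid transcription factors, 5 were lower in macrophages at 14 d, led by Cebpa (-1.97 ± 0.18), Cebpb (-1.24 ± 0.21) and Spi1, which encodes PU.1 (-0.999 ± 0.15), the first 2 under the well-expressed scaling too (-1.40 and -0.67). In the same comparison 22.9% of all genes tested and 47.8% of well expressed genes were lower. In monocytes Irf8 fell at 3 d (-1.31 ± 0.19) and 14 d (-1.07 ± 0.18) and Irf1 at 14 d (-1.80 ± 0.20) under both scalings, and Hif1a was higher at 14 d (0.90 ± 0.23). The ISRE form in the Cybb window printed above is a form that interferon regulatory factors bind, and no binding was measured here.

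Across samples of 1 cell type, the genes most alike in pattern were named by the Pearson correlation of log2 CPM, a description in which points share group and scaling. For Cybb these were Papola, Fbxo38 and Abi1 in monocytes (r = 0.986 to 0.988, 12 samples) and Cnksr3, Nceh1 and Dst in macrophages (r = 0.994 to 0.997, 10 samples). For Lyz2 they were Tmem59, Rab8a and Capzb in monocytes and Tspan14, Snx19 and Serinc4 in macrophages. Among the 8 genes themselves Lyz2 and Lyz1 were the closest pair in both cell types (r = 0.958 and 0.981), Cybb and Lyz2 had r = 0.879 and 0.9497, and Cybb and Cyba -0.24 and 0.358.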

How the data were processed

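Poly(A) RNA of the sorted cells was sequenced as paired reads of 150 bases. The deposited values were raw counts per gene, made by the authors. Their processing notes name STAR 2.7.2c and 2.7.3a, featureCounts 1.6.3, DESeq2 1.26.0 and 1.28.1 and GRCm38, without tying a version to a cell type. Strand and multi-mapping settings are not given in the sources used here. Gene IDs were named from the GENCODE annotation (31047 of 31134 and 55154 of 55421 matched).

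Counts were tested with edgeR 4.0.16 (quasi-likelihood, filterByExpr, TMM, robust) in R 4.3.3, in 1 fit per cell type and 1 fit of all 22 samples for comparisons between cell types. Adjusted p-values (Benjamini-Hochberg) cover all genes tested. The tests were checked on simulated data. The floor was 3 counts in a library, and intervals cover counting error only. The labels do not say which samples came from separate mice, so p-values measure the spread between samples. None of 30 replicate pairs agreed within sampling noise (chi-square per degree of freedom 9.79 to 145).

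The genes, the lists and the tests were chosen with earlier results of these data known. The text names the 8 genes throughout and, per comparison and direction, the called list genes of mean log2 CPM over 3 and the largest changes, with Rac1, Ass1 and Gch1 always. Some list genes are counted but not reported here by name. Alternatives were library size scaling, TMM factors computed on well expressed genes (mean log2 CPM over 5), DESeq2 1.42.0, no filter, a stricter filter (mean log2 CPM over 1), fits restricted to the groups compared, the replicate number as a block and leaving out each sample.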

Additional observations from a re-analysis of the deposited data

Results flagged for a closer look

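The changes of 5 of the 8 genes differed between the cell types by a test of the difference itself (edgeR, change in macrophages minus change in monocytes, log2). At 3 d these were -4.31 for Nos2 and 0.91 for Lyz1. At 14 d they were -1.85 for Cybb, -0.78 for Cyba, 2.78 for Nos2, -0.84 for Lyz2 and -0.85 for Lyz1. Of all genes tested, 18.7% were called for this difference at 3 d and 36.8% at 14 d, and 55.5% of well expressed genes were called lower at 14 d. The values of Cyba, Lyz2 and Lyz1 at 14 d were near 0 under TMM from well expressed genes, and those of Cybb and Nos2 kept their call. Nos2 passed the filter on low counts through the groups where it is high, so its values describe its raw counts and are not separate evidence. Library size and sort differ between the cell types, and their part was not tested. No sample lay far from the rest of its group by Dixon's test in the 32 groups of 4 samples tested. Chance alone would mark about 1 in 20 of them. The macrophage groups at 3 d and 14 d, with 3 samples each, were not tested in this way.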

How the results depend on the processing

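Among the values of single genes under settings that kept all samples, 685 stayed on their side of the threshold, 68 lost a call, 28 gained one and 3 called values turned sign. Among the 685, 91 values that were called under neither setting turned sign. The 3 were differences between cell types at 14 d under TMM from well expressed genes, at 0.0618 for Cyba, 0.0221 for Lyz2 and 0.00149 for Lyz1. Of the 8 genes, TMM from well expressed genes called 2 in monocytes at 3 d, 1 at 14 d, 3 in macrophages between 14 d and 3 d, and 1 and 3 for the differences at 3 d and 14 d. Library size scaling called 2, 0, 3, 1 and 3 in the same order. Called higher and lower were 8215 and 3223 genes in monocytes at 3 d, and 9871 and 439 under TMM from well expressed genes. In macrophages at 14 d they were 8258 and 4793 against 10430 and 1235, between 14 d and 3 d 2677 and 7718 against 429 and 9587 in monocytes and 7611 and 4195 against 9627 and 1102 in macrophages, and for the 14 d difference 4511 and 5318 against 8002 and 1031.

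Without a filter 19592 genes were called in monocytes at 3 d and 16664 between 14 d and 3 d, where 3 of the 8 genes were called. With a mean log2 CPM above 1, which tests fewer genes and leaves Nos2 out in macrophages and in the fit of both cell types, the genes called were 2328 in monocytes at 3 d and 2346 between 14 d and 3 d, 5752 in macrophages at 14 d and 5032 between 14 d and 3 d, and 1802 and 4693 for the differences at 3 d and 14 d. Of the 8 genes it called 3 and 2 in these macrophage comparisons and 0 and 2 for the differences. DESeq2 called 763 genes in macrophages at 3 d and 2 of the 8 for the 14 d difference. Fits of only the groups compared called 2 of the 8 in monocytes between 14 d and 3 d. They left out Nos2 in monocytes at 14 d, macrophages at 3 d and the control cells, and were not run for the differences. The cause of these changes was not tested beyond that.

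With a sample left out, genes called ranged from 9758 to 13836 in monocytes at 3 d, 1158 (without 14 d replicate 3) to 1904 at 14 d and 8553 to 12753 between them. In macrophages they ranged from 77 (without 3 d replicate 1) to 1476 (without 3 d replicate 2) at 3 d, 12400 to 17262 at 14 d and 11421 to 14092 between them. They ranged from 11118 to 11859 for the control cells, 2272 (without macrophage 3 d replicate 3) to 5370 for the 3 d difference and 7879 to 10601 for the 14 d difference. Of the 8 genes, 5 to 6, 0 to 3, 1 to 3, 0 to 1, 5, 4 to 6, 6, 1 to 4 and 3 to 6 were called in that order.

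Replicate numbers were shared between groups, but samples of 1 number did not deviate together in every pair (r from -0.432 to 0.183 in monocytes at 3 d, 0.0129 to 0.530 in monocytes at 14 d, -0.313 to -0.0125 and -0.110 to 0.0419 in macrophages at 3 d and 14 d). A replicate block called 133 genes in macrophages at 3 d, and of the 8 genes 1 in monocytes at 14 d, where Lyz1 was at -0.74 (edgeR adjusted p = 0.0558), and 2 between 14 d and 3 d, where Cybb was added at 0.59 (adjusted p = 0.00830). It also called Ncf1 for the 14 d difference (-0.71, adjusted p = 0.0198). Depth limits Nos2, with 1 to 11 counts in control libraries.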
